A study of Mus musculus with 6 samples.

Results

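The 39 genes described here encode the core machinery of autophagy and a small set of lysosomal proteins. They were chosen by symbol, and all 39 matched a row among the 23473 gene-symbol rows of a table of 56826 rows. The table comes from total RNA of mouse brain, sequenced after removal of ribosomal RNA in 6 libraries of adult male C57BL/6 mice aged 8 to 9 weeks. In the ischemia/reperfusion group (3 libraries) the middle cerebral artery was blocked for 60 min with a coated nylon filament brought in through the right carotid arteries, a model of ischemic stroke also called transient middle cerebral artery occlusion, and blood flow was then restored for 6 h. The sham group (3 libraries) had the same operation, but no filament was placed. No genetic change is named for either group, and both were anaesthetised with chloral hydrate. The sources used here name neither the region or hemisphere taken nor the number of mice behind a library, so the p-values reflect only how these libraries vary, and that variation may be technical. Library totals ranged from 45.4 to 49.7 in units of 1e6 counts, and all 39 genes passed the filter on low counts. Libraries of the ischemia/reperfusion group stood apart on markers of tissue composition. Choroid plexus markers summed to 408, 17.7 and 1170 counts per 1e6 (CPM) in its replicates 1, 2 and 3, against 562 to 767 CPM in sham. Myelin markers summed to 3759, 4766 and 9673 CPM, against 4660 to 5730 CPM in sham. The main counts are therefore also given without replicate 2 and without replicate 3, though replicate 1 lay outside the sham range for both lists as well.

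Autophagy encloses cytoplasm and damaged organelles in a double membrane, the autophagosome, which then fuses with the lysosome, where acid hydrolases digest the content. A kinase complex (Ulk1) starts the process, a lipid kinase complex (Pik3c3 with Becn1) marks the membrane, and a ubiquitin-like conjugation system attaches Atg8 proteins (the LC3 and GABARAP families) to it, to which cargo receptors such as p62 bind. In brain, neurons depend on steady autophagy for protein and mitochondrial turnover, and the transcription factors TFEB and TFE3 raise many lysosomal and autophagy genes when they enter the nucleus.

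None of the 39 genes passed the test for a difference between the groups across the whole table. With edgeR's quasi-likelihood test and Benjamini-Hochberg adjustment over 40170 rows, 0 members were called higher, against a background of 0.00249% of rows, and 0 lower, against 0%. DESeq2 also called 0 members, against 1.1% of rows called higher and 0.707% called lower, and limma-voom called 0. An unadjusted edgeR p under 0.05 was reached by 2 of the 39 genes (5.13%), against 15.6% of all rows. Both, Pik3c3 and Atg5, were lower, where 6.9% of all rows and 8.71% of gene-symbol rows were lower. Higher members numbered 0, where 8.73% of all rows and 6.39% of gene-symbol rows were higher. Without ischemia/reperfusion replicate 2 the lower genes were 7 of the 39 (Ulk2, Rb1cc1, Becn1, Pik3c3, Atg10, Gabarapl1 and Pink1), a larger share than the 7.52% of all rows. Without replicate 3 there were 0, against 4.85% of all rows, so the number rests on single libraries. Without either library 0 members passed the adjusted threshold.

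The measured changes were small and leaned to lower values. Of the 39 log2 fold changes 30 were negative and 9 positive, with a median of −0.09, against 0.02 over all rows tested and −0.04 over gene-symbol rows, of which 44.2% were positive. The extremes were −0.29 (Pik3c3) and 0.25 (Ulk1). The 95% interval of the fold change lay inside 1.5-fold in either direction for 38 of the 39 genes. The exception was Ulk1, whose interval ran from a ratio of 0.933 to 1.52. The member median stood at −0.05 with upper-quartile scaling, where the median over all rows tested was 0.07. The split of signs moved as well: with that scaling Atg13, Atg4b, Atg4d, Map1lc3b, Optn and Tfeb turned from negative to positive. The member median stood at −0.06 when only rows with a mean of at least 1 CPM entered, where all rows had 0.01. With only gene-symbol rows it was −0.05. Its size thus moves with the scaling and with the rows that enter, and upper-quartile scaling moved the median of all rows in the same direction. The member median was −0.08 without ischemia/reperfusion replicate 2 and −0.08 without replicate 3.

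**Figure D1:**
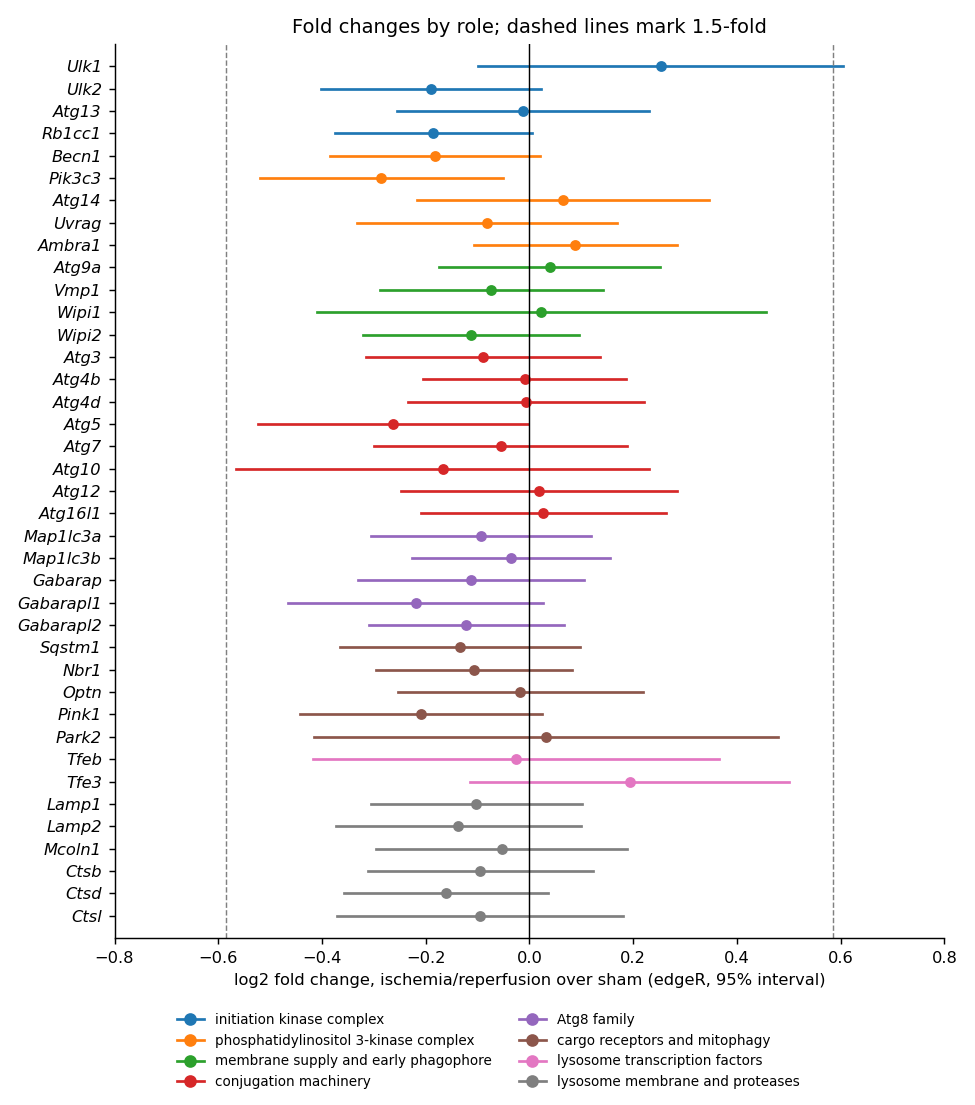
Log2 fold change of each of the 39 genes (points, horizontal axis) with its 95% interval (lines), coloured by role, with dashed lines at 1.5-fold. All intervals but that of Ulk1 lie between the dashed lines, and only those of Pik3c3 and Atg5 lie wholly below 0.

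The values of both groups were separate for some genes, in the lower direction. In 8 members (20.5%) every ischemia/reperfusion library lay below every sham library on the CPM scale (counts scaled to 1e6 with TMM factors), against 10.8% of all rows tested and 14.2% of gene-symbol rows. In 0 members did every ischemia/reperfusion library lie above, against 10.8% of all rows and 7.37% of gene-symbol rows. The 8 were Rb1cc1, Becn1, Pik3c3, Atg3, Atg5, Gabarapl2, Nbr1 and Ctsd. The number depends on the scaling: it was 3 with upper-quartile factors and 5 with plain library totals, where in each case Ambra1 became the 1 gene that lay above. Shares over all rows are not given for these scalings, so these counts are not set against a background.

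Levels between genes were compared per length, as RPKM (the authors' value, which divides a count by the kilobases of its row and by the library total in units of 1e6). Gabarapl1, an Atg8 protein abundant in neurons, had the highest level, with 416 ± 36.4 RPKM in sham and 372 ± 41.4 RPKM in ischemia/reperfusion (SD, n = 3 each). Sqstm1 (269 ± 18.6 RPKM in sham), Pink1 (222 ± 18.3) and Ctsd (194 ± 1.80) followed. Next came Map1lc3a (119 ± 11.6), Lamp1 (114 ± 2.74) and Gabarapl2 (109 ± 2.18), and the spread of Map1lc3a covered the means of the other 2. At the low end stood Wipi1 (2.74 ± 0.591), Park2 (2.76 ± 0.629), Tfeb (2.90 ± 0.272) and Atg10 (3.25 ± 0.208). The 5 Atg8 genes, the 3 cathepsin genes, Sqstm1 and Pink1 thus had higher levels than the transcription factor Tfeb, while Park2 lay near it, and the order of the first 4 genes was the same in both groups, although Pink1 and Ctsd lay within their spread of each other in ischemia/reperfusion.

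**Figure D2:**
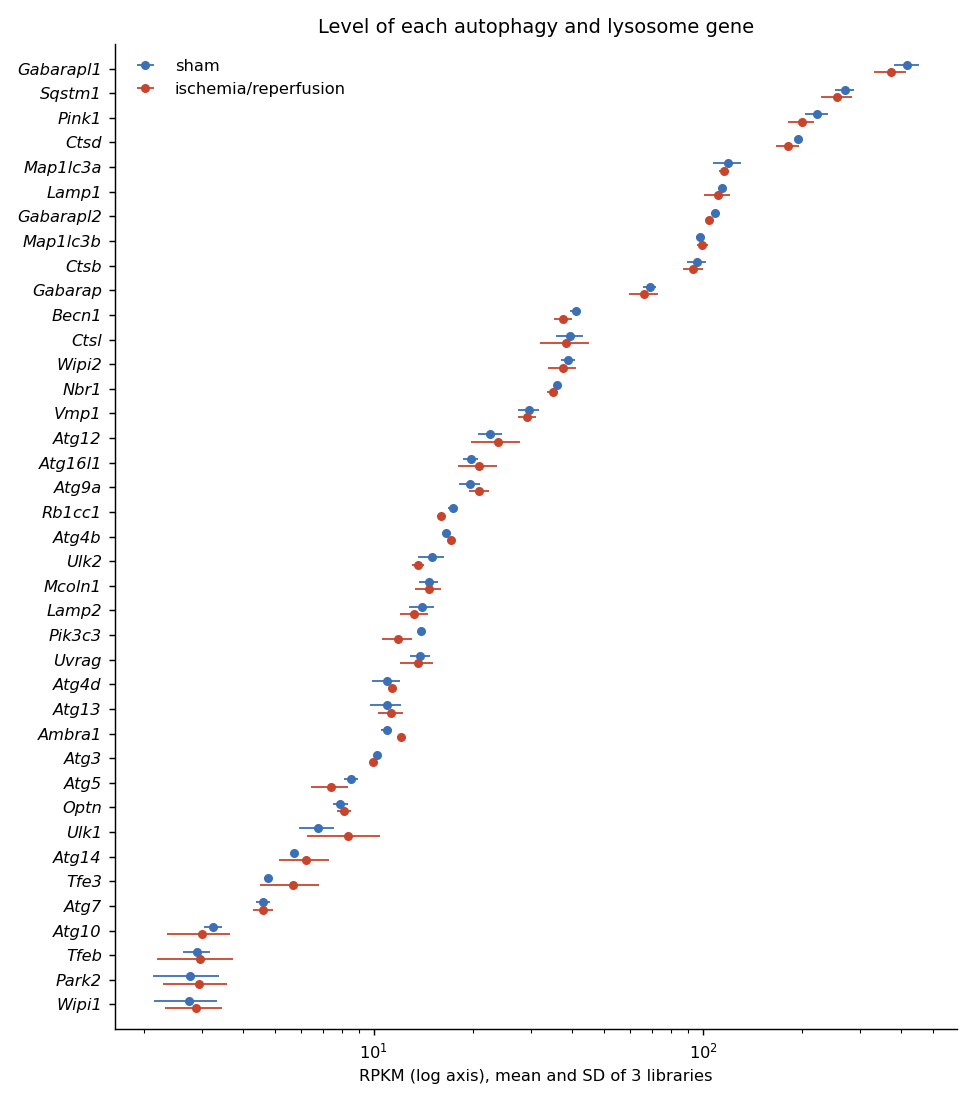
Mean level of each gene in RPKM (log axis, points) with the SD of 3 libraries (lines) for sham (blue) and ischemia/reperfusion (red), ordered by the sham mean. Levels run from 2.74 RPKM for Wipi1 to 416 RPKM for Gabarapl1 in sham, and the order of the first 4 genes is the same in both groups.

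The initiation complex joins the kinases Ulk1 and Ulk2 with the scaffold proteins Atg13 and Rb1cc1 (FIP200). Ulk1, the main initiating kinase, had sham values of 39.2, 31.4 and 36.6 CPM (replicates 1, 2 and 3, as in all that follows) against 34.8, 38.6 and 54.3 CPM after ischemia/reperfusion. Its highest value was that of ischemia/reperfusion replicate 3, while replicates 1 and 2 lay within the sham range. The log2 fold change of 0.25 ± 0.16 (SE) had an edgeR adjusted p of 0.465, and without ischemia/reperfusion replicate 3 it was 0.04. Rb1cc1, which holds the complex together, had sham values of 129, 123 and 124 CPM against 109, 115 and 107 CPM after ischemia/reperfusion, and the groups did not overlap. Its log2 fold change was −0.19 ± 0.09 (SE) with an edgeR adjusted p of 0.332. Ulk2, a relative of Ulk1, was on the other side of 0 at −0.19 ± 0.10 (SE), and Atg13 at −0.01 ± 0.11 (SE).

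The lipid kinase complex makes phosphatidylinositol 3-phosphate on the growing membrane. Pik3c3, its catalytic subunit (VPS34), had sham values of 44.5, 44.7 and 42.6 CPM against 32.9, 40.8 and 34.5 CPM after ischemia/reperfusion. All 3 ischemia/reperfusion libraries lay below sham, with replicate 2 the nearest to it. The log2 fold change of −0.29 ± 0.11 (SE), a ratio of 0.820 with a 95% interval of 0.697 to 0.965, had an unadjusted p of 0.0211 and an adjusted p of 0.251 (edgeR). Becn1 (Beclin 1), a scaffold of the complex, had sham values of 84.7, 83.0 and 87.7 CPM against 77.2, 78.8 and 69.1 CPM after ischemia/reperfusion, again without overlap. Its log2 fold change was −0.18 ± 0.09 (SE) with an edgeR adjusted p of 0.364. The span of the Becn1 row overlaps Cntd1 on the other strand, and with no strand setting given, reads of the 2 genes cannot be told apart. The partner subunits Atg14, which directs the complex to autophagosomes, and Uvrag, which directs it to endosomes, had log2 fold changes of 0.07 ± 0.13 and −0.08 ± 0.11 (SE). Ambra1, a regulator of the complex, had 0.09 ± 0.09 (SE).

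Atg9a carries lipid vesicles to the forming autophagosome, Vmp1 is a membrane protein of the endoplasmic reticulum, and Wipi1 and Wipi2 bind the lipid that Pik3c3 makes. None of the 4 had groups without overlap. Wipi2, the member of this set with the smallest p, had sham values of 155, 149 and 161 CPM against 158, 135 and 137 CPM after ischemia/reperfusion, where replicate 1 lay within the sham range. Its log2 fold change was −0.11 ± 0.10 (SE) with an edgeR adjusted p of 0.594. The other 3 ranged from −0.07 (Vmp1) to 0.04 (Atg9a).

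The conjugation machinery consists of the E1-like enzyme Atg7, the E2-like enzymes Atg3 and Atg10, the ubiquitin-like Atg12 with its partners Atg5 and Atg16l1, and the Atg8-cleaving proteases Atg4b and Atg4d. Of these 8 genes 6 had a negative log2 fold change, and the median was −0.03. Atg5, which forms the Atg12-Atg5 conjugate, had sham values of 21.5, 19.7 and 20.3 CPM against 19.3, 15.4 and 16.5 CPM after ischemia/reperfusion. The groups did not overlap, though sham replicate 2 and ischemia/reperfusion replicate 1 nearly touched. The log2 fold change was −0.26 ± 0.12 (SE), with an unadjusted p of 0.0478 and an adjusted p of 0.314 (edgeR). Atg3, which hands Atg8 proteins to the membrane lipid, had groups without overlap at a log2 fold change of only −0.09 ± 0.10 (SE), since its libraries lay between 19.2 and 21.6 CPM in all. Atg4b and Atg4d stood at −0.01 ± 0.09 and −0.01 ± 0.10 (SE), and the Atg4d row overlaps Kri1 on the other strand. Atg7 stood at −0.06 ± 0.11, Atg10 at −0.17 ± 0.18, Atg12 at 0.02 ± 0.12 and Atg16l1, whose span holds the small RNA Scarna6, at 0.03 ± 0.11 (SE).

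Atg8 proteins coat the autophagosome and recruit cargo, and their 5 genes all had negative log2 fold changes, from −0.22 to −0.04, none of them past the threshold. Map1lc3b, the LC3 form most used as an autophagosome marker, had sham values of 167, 179 and 169 CPM against 160, 170 and 172 CPM after ischemia/reperfusion, and the groups overlapped. Its log2 fold change was −0.04 ± 0.09 (SE), turned to 0.01 with upper-quartile scaling, and its ratio had a 95% interval of 0.854 to 1.11. Map1lc3a had sham values of 116, 125 and 139 CPM against 113, 123 and 120 CPM after ischemia/reperfusion, at −0.09 ± 0.10 (SE), also with overlap.

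Gabarapl1 had sham values of 756, 827 and 679 CPM against 676, 707 and 560 CPM after ischemia/reperfusion. Replicate 3 was the lowest library in each group. The log2 fold change of Gabarapl1 was −0.22 ± 0.11 (SE) with an edgeR adjusted p of 0.369. Gabarapl2, which acts in membrane traffic at the Golgi as well, had sham values of 106, 112 and 108 CPM against 98.1, 103 and 99.7 CPM after ischemia/reperfusion, without overlap and at −0.12 ± 0.09 (SE). Gabarap had sham values of 78.7, 83.5 and 74.2 CPM against 77.0, 65.6 and 76.0 CPM after ischemia/reperfusion, at −0.11 ± 0.10 (SE), with overlap. Among the summed RPKM of the 5 genes Gabarapl1 held 51.3% ± 2.54 in sham and 49.0% ± 3.41 in ischemia/reperfusion (SD, n = 3 each), and Map1lc3b 12.1% ± 0.326 and 13.2% ± 1.04. The order of the 5 shares was the same in both groups. The Gabarapl1 row overlaps the span of 1700101I11Rik on the other strand.

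Cargo receptors link ubiquitin-tagged material to Atg8 proteins, and Pink1 and Park2 (parkin) tag damaged mitochondria. Sqstm1, which encodes p62, had sham values of 557, 590 and 504 CPM against 555, 503 and 446 CPM after ischemia/reperfusion. Ischemia/reperfusion replicate 1 lay within the sham range and replicate 3 well below it. The log2 fold change of Sqstm1 was −0.13 ± 0.11 (SE) with an edgeR adjusted p of 0.560. Pink1, a kinase of the outer mitochondrial membrane, had sham values of 553, 573 and 480 CPM against 461, 511 and 416 CPM after ischemia/reperfusion, with overlap between sham replicate 3 and ischemia/reperfusion replicate 2. Its log2 fold change was −0.21 ± 0.11 (SE) with an edgeR adjusted p of 0.365. Nbr1, a receptor related to p62, had sham values of 183, 196 and 189 CPM against 182, 172 and 173 CPM after ischemia/reperfusion, without overlap by a narrow margin. Optn (optineurin) stood at −0.02 ± 0.11 and Park2 at 0.03 ± 0.20 (SE), the latter with the widest error of the 39 genes.

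The lysosome transcription factors were at low levels, and neither passed the threshold. Tfeb had sham values of 8.91, 8.82 and 7.41 CPM against 7.81, 6.42 and 10.5 CPM after ischemia/reperfusion, so that ischemia/reperfusion held both its lowest and its highest library. Tfe3 had sham values of 17.2, 17.6 and 18.1 CPM against 24.2, 16.3 and 20.1 CPM after ischemia/reperfusion, with replicate 1 the highest and replicate 2 below sham. Their log2 fold changes were −0.03 ± 0.18 and 0.19 ± 0.14 (SE), with edgeR adjusted p of 0.957 and 0.527. Without ischemia/reperfusion replicate 1 the log2 fold change of Tfe3 was 0.03, and without replicate 2 that of Tfeb was 0.12. These factors act mainly through their location in the cell, which RNA levels do not show.

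TFEB and TFE3 bind E-box sequences built on CACGTG, so the promoter windows of the members were searched for it, on both strands, in the RefSeq sequences of build GRCm38.p6 (250 bases before to 50 after a start site). Of the 39 genes 31 had a window, and 8 of these (25.8%) held CACGTG, against 8.09% of all 27025 genes with a window. They were Lamp1, Atg3, Ctsd, Mcoln1, Atg14, Atg5, Atg7 and Ctsl. The longer form GTCACGTG, which contains the first, was in the windows of 6 members (19.4%) against 2.55% of all genes, and TCACGTGA in those of 3 (9.68%) against 1.12%. The palindrome with GT before CACGTG and AC after it was in 0 member windows and in those of 0.370% of all genes. The log2 fold changes of the 8 genes ran from −0.26 to 0.07, and those of the 39 from −0.29 to 0.25. A match describes letters and is not a site shown to be bound. The 4 windows with more than 1 match are given from 5′ to 3′ along the gene, with each CACGTG in capitals, since they show how these E-boxes sit near the start sites of lysosomal and autophagy genes.
Ctsd (chr7:142387778-142388077, minus strand): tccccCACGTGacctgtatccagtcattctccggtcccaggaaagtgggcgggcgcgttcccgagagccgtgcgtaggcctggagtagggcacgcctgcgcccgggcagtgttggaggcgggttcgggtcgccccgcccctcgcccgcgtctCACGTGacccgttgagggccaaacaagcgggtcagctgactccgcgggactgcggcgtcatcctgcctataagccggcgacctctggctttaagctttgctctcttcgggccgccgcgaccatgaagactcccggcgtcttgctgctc
Mcoln1 (chr8:3500269-3500568, plus strand): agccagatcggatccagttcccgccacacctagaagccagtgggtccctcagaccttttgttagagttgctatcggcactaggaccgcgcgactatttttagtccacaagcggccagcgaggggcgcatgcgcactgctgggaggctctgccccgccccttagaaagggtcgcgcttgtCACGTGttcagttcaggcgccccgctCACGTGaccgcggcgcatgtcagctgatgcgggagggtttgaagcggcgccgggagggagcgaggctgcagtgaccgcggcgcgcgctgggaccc
Lamp1 (chr8:13158911-13159210, plus strand): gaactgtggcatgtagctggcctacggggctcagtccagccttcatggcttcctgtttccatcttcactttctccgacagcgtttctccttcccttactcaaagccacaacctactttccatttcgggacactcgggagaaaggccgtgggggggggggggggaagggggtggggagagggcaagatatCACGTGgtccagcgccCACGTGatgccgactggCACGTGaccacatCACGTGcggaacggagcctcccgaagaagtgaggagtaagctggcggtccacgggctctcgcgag
Atg3 (chr16:45158579-45158878, plus strand): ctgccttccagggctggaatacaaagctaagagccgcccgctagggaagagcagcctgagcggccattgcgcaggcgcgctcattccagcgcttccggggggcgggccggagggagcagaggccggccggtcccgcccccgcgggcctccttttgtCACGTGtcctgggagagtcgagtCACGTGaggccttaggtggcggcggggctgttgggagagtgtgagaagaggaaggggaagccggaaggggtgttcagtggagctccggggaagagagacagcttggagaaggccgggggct
The Lamp1 window holds 4 matches, 61, 45, 28 and 15 bases before the start site. The windows of Ctsd, Mcoln1 and Atg3 hold 2 each, the nearest 98, 45 and 71 bases before it.

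The lysosomal genes code for membrane proteins (Lamp1, Lamp2), the calcium channel Mcoln1 (TRPML1) and the proteases cathepsin B, D and L (Ctsb, Ctsd, Ctsl). All 6 had negative log2 fold changes, from −0.16 to −0.05, with 0 past the threshold, though Ctsl stood at 0.03 without ischemia/reperfusion replicate 2. Ctsd, the main aspartic protease of lysosomes, had sham values of 389, 394 and 380 CPM against 366, 320 and 354 CPM after ischemia/reperfusion. The groups did not overlap, replicate 2 being the lowest. The log2 fold change was −0.16 ± 0.09 (SE) with an edgeR adjusted p of 0.409 and a 95% interval of the ratio of 0.780 to 1.03. Ctsb had sham values of 469, 495 and 425 CPM against 442, 463 and 396 CPM after ischemia/reperfusion, with overlap, at −0.09 ± 0.10 (SE). The span of the Ctsb row overlaps Fdft1 on the other strand. Lamp1, the most abundant lysosomal membrane protein, had sham values of 261, 273 and 254 CPM against 251, 224 and 259 CPM after ischemia/reperfusion, with overlap. Lamp1 stood at −0.10 ± 0.09, Lamp2 at −0.14 ± 0.11, Mcoln1 at −0.05 ± 0.11 and Ctsl at −0.10 ± 0.13 (SE, log2 fold changes). Ctsl was lowest in ischemia/reperfusion replicate 2, at 61.0 CPM, and between 72.7 and 88.8 CPM in the other 5 libraries.

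Libraries differed in which genes they held low. The median member lay 0.09, 0.09 and 0.07 below its sham mean on the log2 scale in ischemia/reperfusion replicates 1, 2 and 3. Over gene-symbol rows the same medians lay 0.03, 0.05 and 0.03 below. The lowest of the 6 libraries was ischemia/reperfusion replicate 1 for 10 members (25.6%), replicate 2 for 12 (30.8%) and replicate 3 for 10 (25.6%). Over gene-symbol rows tested the same shares were 20.7%, 21.3% and 22.1%, so these libraries were often the lowest across the table too. A sham library was the lowest for the other 7 members. Sham replicate 2 was the highest for 18 members, a number without a background share here. Within ischemia/reperfusion the abundant Gabarapl1, Sqstm1, Pink1 and Ctsb were all lowest in replicate 3, and Gabarap, Lamp1, Lamp2, Ctsd and Ctsl all lowest in replicate 2.

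**Figure D3:**
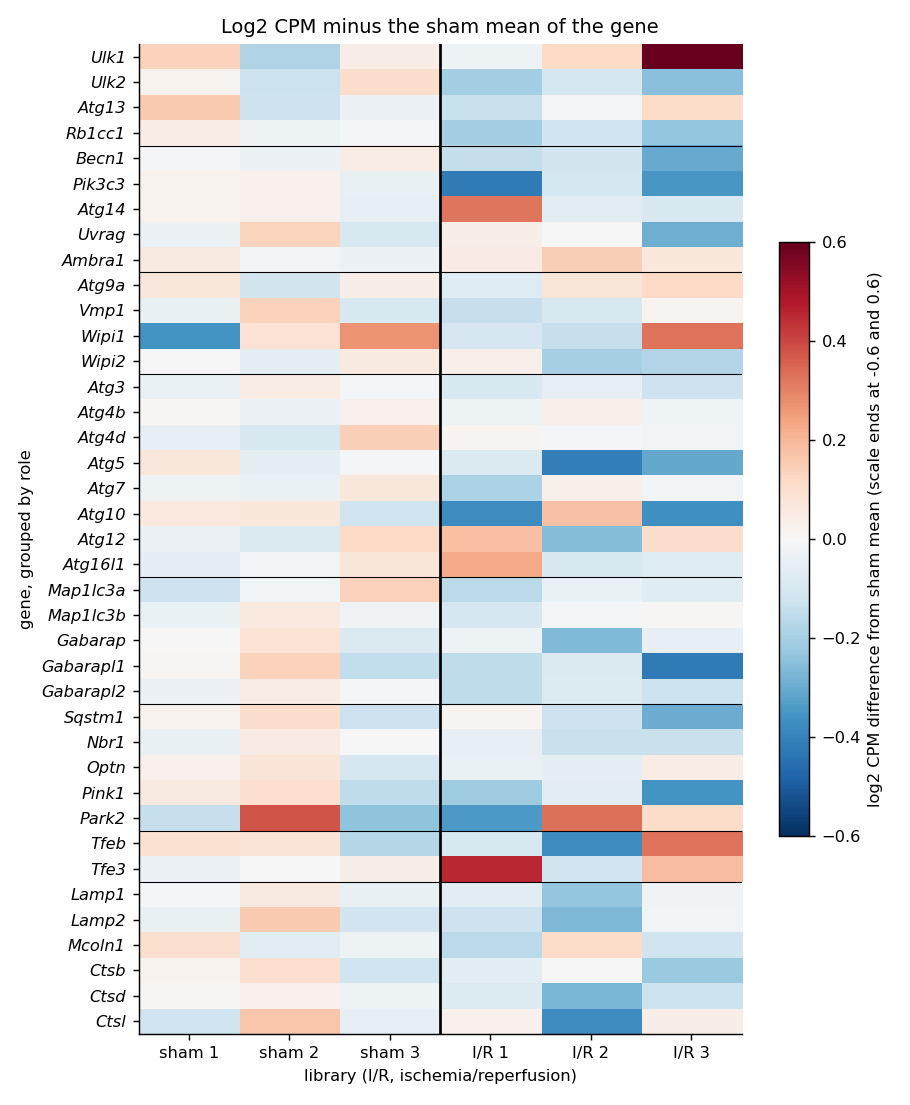
Log2 CPM of each gene (rows, grouped by role) in each library (columns) minus the sham mean of the gene, in colour from blue (lower) to red (higher). Ischemia/reperfusion columns are pale blue for most genes, and single fields stand out in 1 library each, such as Ulk1 in replicate 3 and Tfe3 in replicate 1.

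Further genes of the pathway, from 4 lists, showed the same absence of calls. Of 134 listed genes 133 matched a row, 132 were tested and 0 were called with edgeR in either direction. By unadjusted p under 0.05, 6 of them were higher (4.55%) and 18 lower (13.6%), against 8.73% and 6.9% of all rows. Among gene-symbol rows these shares were 6.39% and 8.71%. The median log2 fold change of the 132 genes was −0.06. The 18 subunits of the vacuolar ATPase, the proton pump that acidifies lysosomes and synaptic vesicles, had 15 negative values and a median of −0.16. Of the 18, 5 (27.8%) were lower at an unadjusted p under 0.05, against 6.9% of all rows and 8.71% of gene-symbol rows. In 7 of the 18 (38.9%) the groups did not overlap in the lower direction, against 10.8% of all rows and 14.2% of gene-symbol rows. The pump subunit Atp6v1g1 had sham values of 95.6, 101 and 90.1 CPM against 77.5, 77.3 and 75.6 CPM after ischemia/reperfusion, without overlap, at −0.32 ± 0.09 on the log2 scale (SE), and its edgeR adjusted p was 0.184. Atp6v1e1 and Atp6v1a, other pump subunits, stood at −0.27 ± 0.10 and −0.24 ± 0.10 (SE).

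Among 33 tested further autophagy genes the unadjusted p was under 0.05 for 2 with higher (6.06%) and 6 with lower values (18.2%), against 8.73% and 6.9% of all rows and 6.39% and 8.71% of gene-symbol rows. Trp53inp1, a stress-induced gene whose protein binds LC3, Atg9b, a relative of Atg9a, and Bnip3, a mitophagy receptor, had the smallest p. Their log2 fold changes were −0.51 ± 0.16, −0.42 ± 0.14 and −0.30 ± 0.11 (SE), with edgeR adjusted p of 0.212, 0.220 and 0.234. Among 48 further lysosomal genes 3 were higher (6.25%) and 5 lower (10.4%) by the same measure, beside the same background. The 3 with the smallest p were the higher ones. Idua, an enzyme that degrades glycosaminoglycans, had sham values of 7.58, 7.38 and 7.61 CPM against 10.4, 10.6 and 10.5 CPM after ischemia/reperfusion, at 0.48 ± 0.12 (SE) with an edgeR adjusted p of 0.159. Laptm5 and Cd68, lysosomal membrane proteins of microglia and macrophages, stood at 0.53 ± 0.14 and 0.68 ± 0.21 (SE), with adjusted p of 0.168 and 0.195. The 10 microglia markers given below had a median log2 fold change of 0.13, with 8 positive and 2 negative. Whether the values of Laptm5 and Cd68 go with those cells was not tested.

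Among 33 tested regulators of mTORC1 and AMPK, the kinases that sense nutrients and energy, the unadjusted p was under 0.05 for 1 with a higher (3.03%) and 2 with lower values (6.06%). Both shares lay below those of all rows, 8.73% and 6.9%, and the 3 genes are named only for having the smallest p of their list. Castor1, an arginine sensor of mTORC1 whose row bears the older symbol Gatsl3, stood at −0.66 ± 0.24, Sesn1, a stress-induced inhibitor of mTORC1, at −0.30 ± 0.11, and Deptor, an inhibitor within the mTOR complexes, at 0.33 ± 0.14 (SE, log2 fold changes). None of the 3 passed the edgeR threshold, with adjusted p from 0.242 to 0.300.

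**Figure D4:**
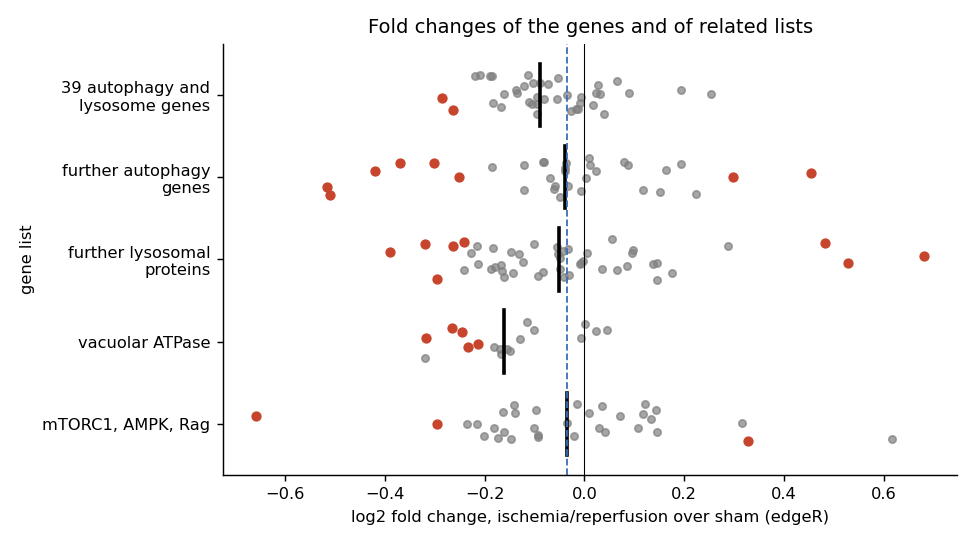
Log2 fold change (horizontal axis) of each tested gene of the 39 members and of 4 related lists, with black bars at list medians, red points for an unadjusted p under 0.05 and a dashed blue line at the median of gene-symbol rows (−0.04). The members have 2 red points, both lower, and the vacuolar ATPase list has the lowest median, −0.16.

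The table also lists FANTOM3 cDNA clones, full-length mouse cDNAs with rows of their own. In all, 58 clone rows lay on the same strand inside the span of 21 members (up to 1000 bases beyond its ends), and 51 were tested. Their median log2 fold change was 0.04, against 0.09 over all 23528 clone rows tested. With edgeR 0 were called. Of the 51, 4 were higher at an unadjusted p under 0.05 (A130006N06 and fantom3_3110098I04 in Vmp1, A330091A18 and E030017I03 in Ambra1). Lower by the same measure were 2 of the 51 (fantom3_2900055E04 and fantom3_9130229H12, both in Rb1cc1). Both are smaller shares than those of all clone rows tested, 10.4% and 5.63%. These clone names were picked out after their values were seen. Clone rows of Rb1cc1 and Becn1 went the way of the gene row: the 3 in Rb1cc1 ran from −0.43 to −0.20 and the 2 in Becn1 stood at −0.18 and −0.17. Such rows may count the reads of the gene row again and are no further evidence.

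Several low-count clone rows of Vmp1 and Ambra1 had larger positive values than the gene row. The row of clone A130006N06, on chromosome 11 from 86676338 to 86678621 (mm10) inside Vmp1, had sham counts of 29, 30 and 26 against 61, 60 and 57 after ischemia/reperfusion, without overlap. Its log2 fold change was 1.07 ± 0.26 (SE) with an edgeR adjusted p of 0.155, while the Vmp1 row stood at −0.07 ± 0.10 (SE). The clone row F630101H06, also inside Vmp1, held counts between 1957 and 2521 and stood at −0.05 ± 0.11 (SE). Of the 12 clone rows tested in Ambra1 11 were positive, with a median of 0.82, against 0.09 for the gene row. Some of these values rest on 1 library. In fantom3_6330416B20 (13, 41 and 15 counts after ischemia/reperfusion) and C130034I24 (10, 40 and 13) replicate 2 alone lay above the sham values. In A430034K18 (3, 10 and 21) replicate 3 alone did. In 11 of the 12 no library had more than 67 counts, some of these rows overlap each other, and only E030017I03 among the 12 had groups without overlap.

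**Figure D5:**
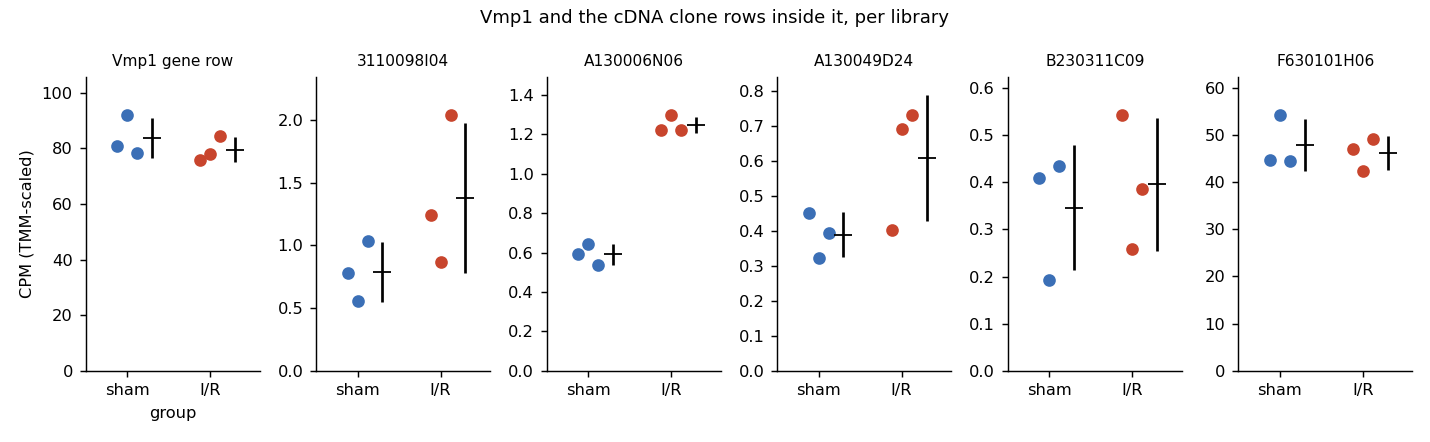
CPM of the Vmp1 row and of the 5 clone rows inside it for each sham (blue) and ischemia/reperfusion (red, I/R) library, with the mean and SD of 3 libraries in black and a separate vertical axis from 0 for each row. The row A130006N06 has groups that do not overlap, while the Vmp1 row and the row F630101H06 have groups that do.

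The authors' deposited table, for which no test is named in the sources used, lists 14 of the 39 genes with a q-value under 0.05. Of these, 4 were higher in the authors' deposited table, where 14.7% of rows were higher, and 10 lower, where 9.77% of rows were lower. The 4 higher genes in the authors' deposited table were Ulk1, Ambra1, Atg9a and Tfe3. Sizes in the authors' deposited table were as small as here, from a log2 fold change of −0.23 for Pik3c3 to 0.31 for Ulk1. Those values compare mean RPKM, which divides by library totals, while the values here use TMM factors. With TMM factors the same 2 genes stood lower, at −0.29 and 0.25. None of the 14 passed the adjusted threshold in edgeR, DESeq2 or limma-voom.

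Markers of cell types were summed per library on the CPM scale, since in tissue RNA fewer cells of a type and less RNA per cell cannot be told apart. Neuron markers (8 of 8 matched) summed to 4034 to 4073 CPM in sham and 3566 to 4233 CPM in ischemia/reperfusion, so markers of the labelled tissue were present in all libraries. Astrocyte markers (8 of 8) summed to 5448 to 5594 and 4568 to 5057 CPM. Microglia markers (10 of 10) summed to 263 to 276 and 278 to 311 CPM, and neutrophil and monocyte markers (9 of 10) to 5.81 to 9.47 and 10.8 to 17.6 CPM. For these last 3 lists the groups did not overlap. Ngp and Camp, of the neutrophil list, were at 0 in some libraries. Myelin markers (7 of 7) summed to 4660 to 5730 and 3759 to 9673 CPM, choroid plexus markers (5 of 5) to 562 to 767 and 17.7 to 1170 CPM, endothelial markers (6 of 6) to 185 to 190 and 182 to 202 CPM, erythroid markers (4 of 5) to 87.3 to 144 and 120 to 199 CPM, and hypothalamic and thalamic markers (9 of 9) to 254 to 308 and 233 to 374 CPM. The part of these differences in the values of the 39 genes was not tested.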

How the data were processed

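Per the labels' protocols, brain RNA was freed of ribosomal RNA and sequenced as read pairs in 3 sham and 3 ischemia/reperfusion libraries. The genome build was mm10, per the submitters' processing notes. Counts were deposited as whole numbers for each row and library. Not given in the sources used here are aligner, counter, annotation and strand setting. The RPKM values were made by the authors, and dividing counts by row kilobases and library totals gave back 100% of them (relative tolerance 0.001). The authors' deposited comparison table holds mean RPKM, a log2 fold change, p-values and q-values. The deposited row length served as it stands.

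All rows were tested with edgeR 4.0.16 (R 4.3.3): TMM factors, filterByExpr defaults, robust quasi-likelihood F test, two-sided, Benjamini-Hochberg adjustment over 40170 rows, threshold 0.05. CPM was scaled with TMM factors. The SE was the size of the log2 fold change divided by the square root of F, and intervals are 95% t intervals, unadjusted. Counts per member and library ran from 190 to 38513. The alternatives were DESeq2 1.42.0, limma-voom (limma 3.58.1), upper-quartile or RLE factors, testing without the filter or with rows averaging 1 CPM or more, a block for the replicate number, gene-symbol rows alone, and leaving out each library in turn. Scaling to plain library totals was an alternative chosen after seeing the data. The fitting code was tested on simulated data.

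The members, roles and lists were chosen with earlier results of these data known. Genes named with all 6 values had an unadjusted p under 0.05, the smallest p of their role, or belonged to the Atg8 family or transcription factors, and in related lists the 3 smallest p were named. Ulk1, Becn1, Sqstm1, Nbr1, Ctsb, Lamp1 and the clone rows were added after their values were seen. Of 202 other list genes 199 matched a row, 4 of the matches by gene ID. No column was left without a sample.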

Additional observations from a re-analysis of the deposited data

How the results depend on the processing

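With each of the 14 alternatives 0 members were called. Across the 39 genes and 14 alternatives 505 of 546 log2 fold changes kept their sign and 41, in 14 genes whose main value was at most 0.10 in size, did not. With upper-quartile factors the values that changed sign were 0.029 for Atg13, 0.032 for Atg4b, 0.034 for Atg4d, 0.0059 for Map1lc3b, 0.023 for Optn and 0.012 for Tfeb. With a mean of at least 1 CPM they were 0.021 for Atg13, 0.023 for Atg4b, 0.026 for Atg4d, 0.015 for Optn and 0.0072 for Tfeb. With gene-symbol rows only they were 0.031 for Atg13, 0.034 for Atg4b, 0.036 for Atg4d, 0.0079 for Map1lc3b, 0.026 for Optn and 0.017 for Tfeb. These 3 settings move the median of all rows by less than 0.1.

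Leaving out each library gave ranges of −0.077 to 0.069 for Atg13, −0.15 to 0.16 for Wipi1, −0.078 to 0.14 for Atg12, −0.095 to 0.082 for Atg16l1, −0.13 to 0.24 for Park2, −0.24 to 0.12 for Tfeb, −0.017 to 0.086 for Atg9a, −0.074 to 0.017 for Optn, −0.056 to 0.060 for Atg4d, −0.091 to 0.13 for Atg14, −0.17 to 0.026 for Ctsl and −0.15 to 0.011 for Uvrag. Members lower at an unadjusted p under 0.05 numbered 2 in the main test (6.9% of all rows) and 0 to 7 when a library was left out. Without ischemia/reperfusion replicates 1, 2 and 3 they numbered 2 (9.98% of rows), 7 (7.52%) and 0 (4.85%). Without sham replicates 1, 2 and 3 they numbered 0 (3.38% of rows), 1 (4.83%) and 3 (5.30%). Higher members numbered 0 to 1, which was Ulk1 without ischemia/reperfusion replicate 1 (11.1% of rows) and Tfe3 without replicate 2 (7.93%). The lower number was 0 with upper-quartile factors (4.34% of rows). It was 1, Pik3c3, with a mean of at least 1 CPM (6.51%), with DESeq2 (6.55%) and with gene-symbol rows only (5.06%).

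The labels number the replicates in both groups, but same-numbered libraries did not deviate together (correlations of −0.06, 0.04 and 0.11), and not every library correlated best with its own number. With the replicate number as a block 4 members were lower at an unadjusted p under 0.05 (Pik3c3, Atg5, Gabarapl1 and Pink1), against 6.67% of all rows. With the same block 0 of all rows were called higher.

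The median log2 fold change of the members was −0.09, and it was −0.048 with upper-quartile factors, −0.057 with a mean of at least 1 CPM and −0.046 with gene-symbol rows only, and −0.12 to −0.07 when a library was left out. The median over all rows tested was 0.025, with 0.066 for upper-quartile factors and 0.011 for a mean of at least 1 CPM. Members without overlap numbered 8 lower and 0 higher. With upper-quartile factors they were 3 and 1, with library totals 5 and 1, and when a library was left out 9 to 14 and 0 to 2, where fewer libraries overlap less often by construction. Shares over all rows are not given for these settings, so these numbers are not set against a background. Over all rows tested 1 was called higher and 0 lower. The rows called were 2 higher with upper-quartile factors, 51 higher and 26 lower with no filter, 0 higher with a mean of at least 1 CPM or gene-symbol rows only, 355 higher and 229 lower with DESeq2, 4 higher with limma-voom, and 0 to 650 higher and 0 to 407 lower when a library was left out. The cause was not tested. Low counts limit the clone rows, Wipi1, Atg10, Park2 and Tfeb most.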
